A study of Mus musculus with 13 samples.

Results

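The proximal tubule (PT) and the loop of Henle (LOH) nuclei of newborn mouse kidney were compared, genome-wide, by how open the chromatin over each gene was. The members were the nuclei that the authors' annotation places in the clusters PT and LOH of the 2 samples labelled P0, 1104 PT nuclei (547 in sample 1 and 557 in sample 2) and 1287 LOH nuclei (635 and 652). These 2391 nuclei were taken from 11429 nuclei at P0 and 28316 in the whole single-nucleus ATAC-seq (snATAC-seq) series, an assay in which a transposase cuts open DNA inside nuclei that carry a barcode each. The series holds whole kidneys of mice at P0 (2 samples), P21 (1 sample) and P56 (2 samples), and the last 3 samples were used as adult. The labels of these samples give no genotype, treatment or strain, and the study's methods name wild type and C57BL/6 mice for its single-cell RNA-seq without repeating it for snATAC-seq. The preparation notes describe the P0 animals as 1 day old, with both kidneys taken. A smaller cluster, PT2, held 195 nuclei at P0 and stayed out of the main comparison. It is taken here as the straight segment of the proximal tubule that the study describes, though the study does not use the name PT2.

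Both segments arise from the same nephron progenitors. The proximal tubule recovers most of the filtered sodium, phosphate, glucose, amino acids and protein through a brush border and burns fatty acids to pay for it, and HNF4A is known as a transcription factor of this segment. The thick ascending limb of the loop of Henle takes up salt without water through the cotransporter NKCC2 (Slc12a1) and the potassium channel ROMK (Kcnj1), and distal nephron cells are known to use factors of the Tfap2, Pou3f, Irx and Grhl families. Where the branches part, the study asked which genes open in one of them and not in the other.

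A peak was either open or closed in a nucleus, so the sum over a cluster is the number of nucleus and peak pairs called open. The PT sums held 4041065 open calls in sample 1 and 3345160 in sample 2, and the LOH sums 4237673 and 5038740. The median nucleus had 7128 and 5420 open peaks in PT and 6567 and 7430 in LOH, so PT was the deeper cluster in sample 1 and LOH in sample 2. Gene activity was the sum of open calls over all peaks in the gene body and 2 kb upstream of it, with the level given as CPM, the open calls of a gene relative to the cluster's summed gene activity, scaled by TMM over all cell types and samples. Of 55450 annotated genes, 22501 held no peak, and 26072 passed the filter on low sums and were tested with the sample as a block. The authors drew the clusters from the open chromatin of these same nuclei and samples. The adjusted p-values below thus rank genes by the size of a difference against its fitted spread. They are not an independent test that the clusters differ. With 4 sums per gene, the fitted spread rests mainly on all genes together and not on the 2 samples of 1 gene. Nothing in the labels says that the 2 samples are separate animals, so the spread between them may be technical. One barcode occurred in the PT or LOH nuclei of both samples, out of 52 shared by all nuclei of the P0 samples.

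The study named the clusters from the accessibility of known marker genes in these nuclei, so marker levels describe the clusters and are no independent check of their names. Of 10 proximal tubule markers, all were higher in PT than in LOH, and 7 had their highest mean level in PT among the 13 cell types of the P0 kidney. Kap and Slc7a13 were highest in PT2, and Cubn, a receptor for filtered protein, was highest in endothelial nuclei. Of 8 loop of Henle markers, 7 were higher in LOH and 5 had their highest mean level there. Kcnj1 was highest in the distal convoluted tubule, Ptger3 in intercalated cells and Tmem207 in a stromal cluster. The summed level of the proximal markers was 1027 and 1041 CPM in PT against 230 and 217 CPM in LOH, and that of the loop markers was 163 and 161 CPM in PT against 372 and 383 CPM in LOH.

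After TMM scaling, gene activity split almost evenly. That scaling centres the folds, with a median log2 fold of -0.0053 over all genes, so the evenness is no measured balance of open chromatin. The counts also depend on the processing, with 4784 genes toward PT and 3923 toward LOH by DESeq2. They were 4806 and 3528 with PT2 in place of PT, and 2639 and 2326 after thinning each nucleus to 1000 open peaks. At an adjusted p under 0.05, 7790 genes were higher in PT (29.9% of those tested) and 7706 were higher in LOH (29.6%), together 59.4% of all genes. With so many genes past the test, a call alone says little about any one gene, and the size of the difference carries the description. Past 2-fold, 2480 genes were higher in PT (9.51%) and 3507 in LOH (13.5%). Past 8-fold the order turned, with 366 genes toward PT and 225 toward LOH. The log2 folds of sample 1 and sample 2 correlated across the 26072 genes with a Pearson r of 0.91, as a description across genes that share 2 libraries, and 84.8% of these genes had the same sign in both. Among called genes this share was 99.9%, but the call was made on both samples together and favours genes of 1 sign. The median standard error of a log2 fold was 0.13.

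**Figure D1:**
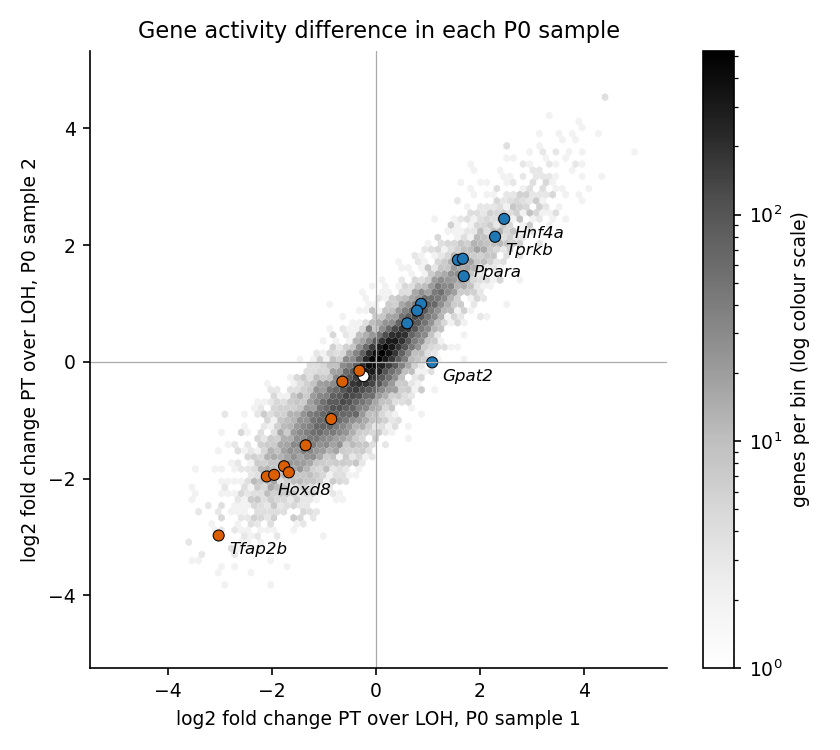
Log2 fold change of gene activity, PT over LOH, in P0 sample 1 (x axis) and P0 sample 2 (y axis) for 26072 genes, as bins shaded by the number of genes on a log scale. Circles are the 19 genes that the study names at the branch, blue where higher in PT, orange where higher in LOH and white where not called. Tfap2b and Hnf4a lie at the ends of the diagonal, and Gpat2 is the circle that is raised in sample 1 and near 0 in sample 2.

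The transcription factors known from the proximal tubule were more open in PT. Of 8 listed factors, 7 were higher in PT (29.9% of all genes were) and 1 in LOH (29.6%), with a median log2 fold of 1.61 beside -0.0053 over all genes. Hnf4a, a nuclear receptor that drives proximal tubule genes, had 1241 open calls in PT and 255 in LOH of sample 1, and 1129 and 338 in sample 2. Both PT sums lay far above both LOH sums. The log2 fold was 2.47 ± 0.06 (SE of the fit, n = 2 samples), or 5.54-fold, with an adjusted p of 1.04e-21 by edgeR's quasi-likelihood test. Ppara, the fatty acid sensor that turns on fatty acid oxidation, had 798 and 711 open calls in PT against 285 and 342 in LOH, a log2 fold of 1.73 ± 0.07. For both genes each PT sum lay above each LOH sum. Nr1h4, the bile acid receptor FXR, was higher in PT by 1.65 ± 0.09 and Maf, a large basic leucine zipper factor, by 1.68 ± 0.09. Hnf4g, the close relative of Hnf4a, was higher by 1.37 ± 0.11. Trps1 was higher by 0.34 ± 0.07, and Bhlhe41, a circadian repressor, was the member higher in LOH, at -0.96 ± 0.14. Over the peaks near its starts alone, Trps1 stood at -0.56 and passed toward LOH (adjusted p of 2.7e-04, edgeR). After thinning each nucleus to 1000 open peaks, neither Trps1 (0.12) nor Bhlhe41 (-0.54) passed. These 2 genes, Trps1 and Bhlhe41, are named outside the rule, after their values were seen.

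Of 18 factors known from the distal nephron, 11 were higher in LOH, 6 were higher in PT and 1 did not pass, beside 29.6% and 29.9% of all genes, with a median log2 fold of -1.07. The share of the list that was higher in PT was thus near that of all genes. Tfap2b, an AP-2 factor needed for the distal nephron, had 30 and 25 open calls in PT and 294 and 341 in LOH, the lowest fold of the list at -3.07 ± 0.14 (adjusted p of 1.45e-16, edgeR). The LOH sums were many times the PT sums in both samples, and in nephron progenitors Tfap2b stood at 14.2 and 13.3 CPM, between PT at 7.31 and 7.24 CPM and LOH at 65.2 and 62.4 CPM. Irx1, an Iroquois homeobox factor, had 32 and 23 calls in PT and 149 and 181 in LOH, and its neighbour Irx2 had 41 and 28 against 165 and 229. With the PT2 cluster in place of PT, the log2 folds were 0.35 for Irx1 and 0.077 for Irx2, in the opposite direction, and neither passed. Hoxd8 had 57 and 47 against 286 and 309, all in the 1 peak at its start. For Irx1, Irx2 and Hoxd8, too, no PT sum reached an LOH sum, at log2 folds of -2.12 ± 0.17, -2.04 ± 0.16 and -2.07 ± 0.13. Mecom and Prdm16, both PR-domain zinc finger factors, were higher in LOH by long runs of peaks. Mecom had 583 and 411 calls in PT and 2133 and 2520 in LOH over 146 peaks, a log2 fold of -1.77 ± 0.06, and Prdm16 had 416 and 318 against 1853 and 2010 over 89 peaks, at -1.95 ± 0.06. Tfap2a was lower in PT, at -1.39 ± 0.09. Irx3, which lies on another chromosome than Irx1 and Irx2, was higher in PT at 0.49 ± 0.12 from a single peak, but did not pass with DESeq2 (adjusted p of 0.120) or after thinning each nucleus to 1000 open peaks (0.27, adjusted p of 0.605). Cited4, a transcriptional co-activator, had 145 and 111 calls in PT and 196 and 217 in LOH, and its log2 fold of -0.24 ± 0.11 did not pass the test over genes (adjusted p of 0.0583). Its 1 peak, with the same calls, passed the test over peaks (adjusted p of 0.0366, edgeR), as did the gene with equal numbers of nuclei (-0.29, adjusted p of 0.0254).

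Several factors of the list stood outside the rule for named genes and are given after their values were seen. Pou3f3, a POU factor of the loop of Henle, had 117 and 98 calls in PT and 299 and 375 in LOH, a log2 fold of -1.18 ± 0.10, but with PT2 in place of PT it stood at -0.17 and did not pass (adjusted p of 0.405, edgeR). Grhl2, a grainyhead factor of tight epithelia, stood at -1.70 ± 0.09, and Esrrb, an orphan receptor of the loop, at -0.50 ± 0.08. Its relative Esrrg was higher in PT, with 1898 and 1558 calls against 1243 and 1487, a log2 fold of 0.80 ± 0.04. Tfcp2l1, a grainyhead-like factor of collecting duct cells, was higher in PT by 0.61 ± 0.06 (0.19 with PT2, where it did not pass) and Emx1 by 1.13 ± 0.10. Emx2, a homeobox factor like Emx1, was higher in PT by 0.52 ± 0.08. Esrrg, Tfcp2l1, Emx1, Emx2, Irx3 and Ppargc1a were thus the 6 listed distal factors that were higher in PT.

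**Figure D2:**
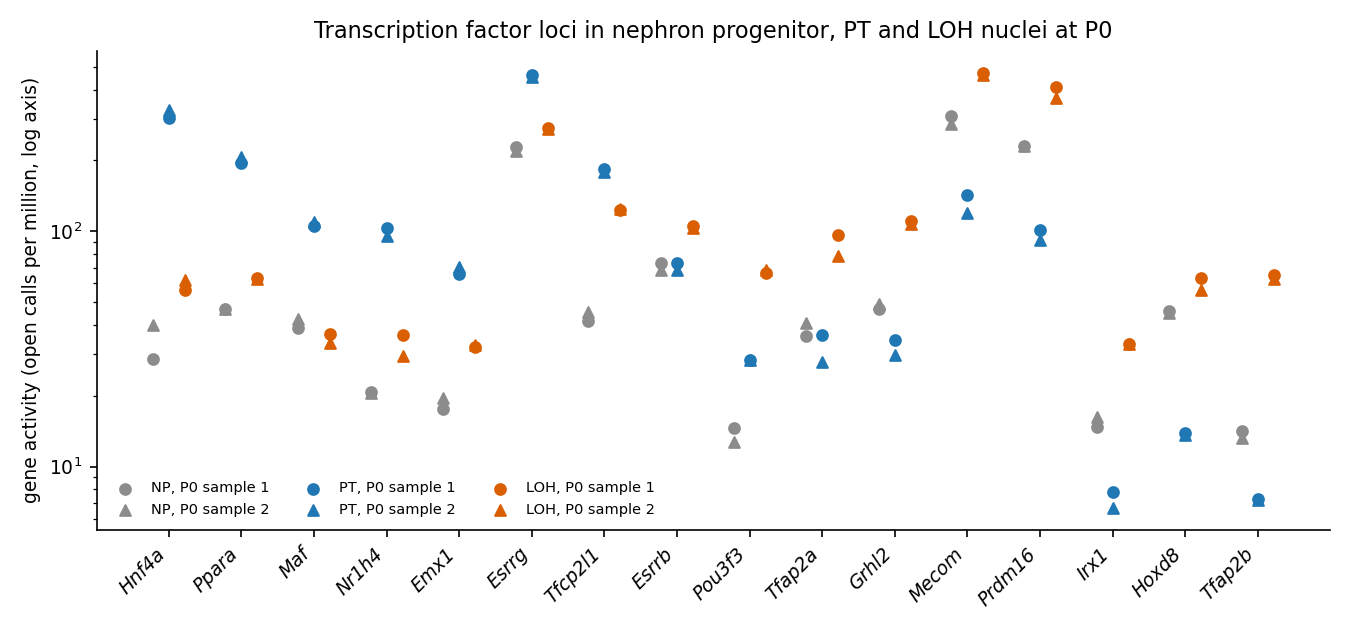
Gene activity (CPM, log axis) of 16 transcription factor genes at P0 in nephron progenitor (grey), PT (blue) and LOH (orange) nuclei, with a circle for sample 1 and a triangle for sample 2. Levels are not divided by gene length and compare clusters within 1 gene. The 2 samples of a cluster lie close together, and Tfap2b, Irx1 and Hoxd8 were lower in PT than in nephron progenitors.

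Nephron progenitor nuclei, from which both branches come, gave a reference level without a test. Hnf4a stood at 28.6 and 39.9 CPM in progenitors, 302 and 327 CPM in PT and 56.5 and 61.9 CPM in LOH. Its LOH level was thus above that of progenitors in both samples, but far below PT. Mecom stood at 309 and 286 CPM in progenitors, 142 and 119 CPM in PT and 473 and 461 CPM in LOH, so the branches lay on opposite sides of the progenitors. Prdm16 showed the same order, with 229 and 230 CPM in progenitors, 101 and 92.1 CPM in PT and 411 and 368 CPM in LOH.

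The peak with the smallest p at each branch gene showed how the chromatin differed. In an intron of Hnf4a, the peak at chr2:163540577-163541451 (mm10) was open in 179 and 170 PT nuclei against 14 and 23 LOH nuclei, a log2 fold of 3.69 ± 0.18. Of 14 tested Hnf4a peaks, 13 were higher in PT and none in LOH, beside 33.4% and 32.1% of all tested peaks. In an intron of Mecom, the peak at chr3:30107939-30108948 was open in 0 and 2 PT nuclei against 109 and 149 LOH nuclei. Scaled for depth, this Mecom ratio was 107-fold, with an exact 95% counting interval of 29.4 to 892. Of 42 tested Mecom peaks, 33 were higher in LOH (32.1% of all tested peaks were) and 6 in PT (33.4%). The peak of Tfap2b at chr1:19210830-19211582, also intronic, was open in 4 and 3 PT nuclei against 71 and 87 LOH nuclei. All 9 tested Tfap2b peaks were higher in LOH, beside 32.1% of all tested peaks. The central 300 bases of these 3 peaks are printed from the plus strand of the RefSeq GRCm38.p6 sequence, since they are the peaks with the smallest p at Hnf4a, Mecom and Tfap2b. Capitals mark a match to 1 of 9 short motifs, which only the Tfap2b peak holds.
Hnf4a: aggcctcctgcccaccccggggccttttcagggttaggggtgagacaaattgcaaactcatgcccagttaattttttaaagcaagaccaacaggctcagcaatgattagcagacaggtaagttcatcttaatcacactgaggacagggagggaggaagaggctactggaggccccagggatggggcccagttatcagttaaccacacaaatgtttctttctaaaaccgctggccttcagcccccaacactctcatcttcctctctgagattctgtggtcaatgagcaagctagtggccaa
Mecom: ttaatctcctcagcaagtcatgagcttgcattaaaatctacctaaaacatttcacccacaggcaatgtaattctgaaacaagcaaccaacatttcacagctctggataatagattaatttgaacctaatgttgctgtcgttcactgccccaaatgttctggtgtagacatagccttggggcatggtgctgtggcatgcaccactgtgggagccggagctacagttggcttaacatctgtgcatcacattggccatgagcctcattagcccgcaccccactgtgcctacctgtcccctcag
Tfap2b: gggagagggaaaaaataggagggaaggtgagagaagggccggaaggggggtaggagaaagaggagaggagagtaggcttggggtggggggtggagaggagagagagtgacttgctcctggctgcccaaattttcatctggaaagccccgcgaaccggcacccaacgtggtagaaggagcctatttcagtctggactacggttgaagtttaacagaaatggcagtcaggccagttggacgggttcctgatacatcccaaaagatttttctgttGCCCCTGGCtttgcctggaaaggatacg
The letters GCCCCTGGC in the Tfap2b peak match the palindrome GCCNNNGGC that AP-2 factors are known to bind.

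Elsewhere on the list that the study names at the branch, which was chosen on these samples and is therefore no independent evidence of direction, 9 genes were higher in PT, 9 in LOH and 1 did not pass, of 19, beside 29.9% and 29.6% of all genes. Tprkb, a subunit of the KEOPS complex that modifies transfer RNA, had 555 and 494 calls in PT and 128 and 182 in LOH, a log2 fold of 2.23 ± 0.09. Its leading peak, at chr6:85927481-85928481 over an exon, was open in 189 and 195 PT nuclei against 2 and 6 LOH nuclei. Tprkb shares 3 of its 6 peaks with Nat8f1, an acetyltransferase gene, so the 2 genes cannot be told apart there. Ephb2, an ephrin receptor that sorts cells by contact, had 329 and 268 calls in PT and 1285 and 1530 in LOH, and Ephb3 had 166 and 137 against 346 and 447, at log2 folds of -1.78 ± 0.06 and -0.92 ± 0.09. Esrra, a nuclear receptor of mitochondrial genes that shares 1 of its 3 peaks with Catsperz, was higher in PT by 0.94 ± 0.08, and Ppargc1a, its co-activator, by 0.84 ± 0.07. The study links Ppargc1a to terminal differentiation of the loop of Henle, which is the other branch. That link rests on the path of differentiation and on expression, which are other measures than a fold of gene activity between clusters. Ppargc1a stood at 56.8 and 44.9 CPM in progenitors, 84.5 and 68.4 CPM in LOH and 141 and 121 CPM in PT. Its LOH level was thus above progenitors, without a test, but below PT. Counted over the peaks within 2 kb of its starts alone, Ppargc1a stood at -0.050, while its peak with the smallest p lay further into the gene, at chr5:51527647-51528998 with 130 and 102 PT nuclei against 22 and 21 LOH nuclei. Lhx1, a homeobox factor of the early nephron, was higher in PT by 0.64 ± 0.11, with 184 and 168 calls against 138 and 174. Here the PT sum of sample 2 lay below the LOH sum of that sample in raw calls, and the depth of the sums sets the direction. Lhx1 did not pass with PT2 (0.45, adjusted p of 0.0508 by edgeR), after thinning (0.33, adjusted p of 0.452) or without the peaks over its starts (0.64, adjusted p of 0.0727).

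The fold of Gpat2, a glycerol-phosphate acyltransferase gene, was carried by sample 1. It had 65 calls in PT and 34 in LOH of sample 1 but 32 and 53 in sample 2, and the log2 fold of 0.60 ± 0.23 (adjusted p of 0.0266, edgeR) was -0.009 from sample 2 alone and 1.13 from sample 1 alone, values with no test. With DESeq2, Gpat2 did not pass (adjusted p of 0.296). Jag1, a Notch ligand, was slightly lower in PT at -0.23 ± 0.07, and Heyl, a Notch target, at -0.50 ± 0.10. The study reports that Jag1 and Heyl lose accessibility in the loop branch, which is not the same as a level below PT. Heyl stood at 123 and 114 CPM in progenitors, 66.1 and 57.3 CPM in LOH and 40.4 and 43.5 CPM in PT. Jag1 stood at 156 and 154 CPM in progenitors, 148 and 138 CPM in LOH and 114 and 120 CPM in PT. Both LOH levels were thus below progenitors and above PT, without a test against progenitors. The study compared stages along an inferred path of differentiation, and branches where that path splits, and not whole clusters. Its comparisons are thus unlike the one made here. Jag1 was at 0.043 over the peaks near its starts, and the Heyl difference was 0.074 in the PT2 cluster, in the opposite direction to PT. Neither value passed. Neither Jag1 (adjusted p of 0.201) nor Heyl (0.0562) passed with DESeq2.

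The Notch pathway acts in segment patterning. Of 12 listed genes, none was higher in PT (29.9% of all genes were), 8 were higher in LOH (29.6% of all genes were) and 4 did not pass, with a median log2 fold of -0.41. Hes5, a target of Notch signalling, had 6 and 6 calls in PT and 37 and 47 in LOH, and Hes1 had 129 and 110 against 372 and 476. Lfng, which modifies Notch receptors with sugar, had 60 and 67 against 279 and 313. In these 3 genes every LOH sum was above every PT sum, at log2 folds of -2.32 ± 0.36 for Hes5, -1.36 ± 0.10 for Hes1 and -1.76 ± 0.13 for Lfng. Notch3, a receptor, was at -1.19 ± 0.11, and Hey1, another target, at -0.54 ± 0.10. Hey1 did not pass with PT2 (-0.32, adjusted p of 0.122 by edgeR), after thinning (-0.39, adjusted p of 0.312) or without the peaks over its starts (-0.54, adjusted p of 0.0631). The receptor Notch2 (0.07 ± 0.05), the ligands Dll1 (-0.14 ± 0.12) and Dll4 (0.17 ± 0.14) and the DNA-binding partner Rbpj (-0.09 ± 0.06) did not pass.

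Factors shared by tubule segments or by early nephrons were divided. Of 13, 6 were higher in PT, 6 in LOH and 1, Osr1, did not pass, beside 29.9% and 29.6% of all genes. Pax8 was higher in PT by 0.88 ± 0.06. Sox9 had 10 and 11 calls in PT and 101 and 125 in LOH, and Sox11 had 36 and 19 against 167 and 189. Six2, which keeps progenitors self-renewing, had 19 and 12 calls in PT and 92 and 87 in LOH. All 3 were far lower in PT, at log2 folds of -2.95 ± 0.24, -2.24 ± 0.17 and -2.09 ± 0.23. Six2 moved together with other progenitor genes: of 6 nephron progenitor markers, 5 were higher in LOH (Six2, Cited1, Uncx, Eya1 and Meox1) and Crym was higher in PT. Cited1 did not pass with PT2 (-0.68, adjusted p of 0.0543, edgeR) or after thinning (-1.13, adjusted p of 0.0614). The summed level of these markers was 162 and 146 CPM in LOH and 125 and 121 CPM in PT, against 273 to 277 CPM in progenitor nuclei, but Crym alone gave 82.8 and 90.1 CPM of the PT sums. The other 5 markers summed to 139 and 123 CPM in LOH, 42.6 and 30.4 CPM in PT and 247 to 250 CPM in progenitor nuclei. So LOH lay between PT and the progenitors for these 5, and the part of immature nuclei in the LOH cluster was not tested.

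Transporters of the proximal tubule were more open in PT without exception among those for sodium, phosphate and glucose. All 17 listed genes were higher in PT (29.9% of all genes were), 16 of them past 2-fold (9.51%), with a median log2 fold of 2.16. Aqp1, the water channel of the proximal tubule and thin limb, had 496 and 513 calls in PT and 47 and 58 in LOH, a log2 fold of 3.75 ± 0.11. Slc34a1, which takes back phosphate, had 796 and 694 against 95 and 127, a log2 fold of 3.21 ± 0.08. Slc5a12, a lactate carrier, had 278 and 196 against 22 and 36, at 3.47 ± 0.15, while the PT2 cluster stood at -0.066 against LOH. The lowest PT sum exceeded the highest LOH sum by several times in each of these genes. Slc17a3 and Slc13a3, carriers of organic anions and dicarboxylates, were higher by 3.17 ± 0.17 and 2.90 ± 0.08. Slc2a2, the glucose exit GLUT2, had 681 and 575 against 132 and 124, a log2 fold of 2.75 ± 0.09. Slc5a2, the sodium-glucose carrier SGLT2, which falls outside the naming rule, had 75 and 67 against 24 and 25, at 1.99 ± 0.21, and in PT2 it stood at -0.33.

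Amino acid carriers followed, with 11 of 12 higher in PT, beside 29.9% of all genes, and a median log2 fold of 1.60. Slc6a18 had 304 and 252 calls in PT and 35 and 53 in LOH, a log2 fold of 3.12 ± 0.13, and Slc6a20b had 162 and 139 against 25 and 23. Slc7a9, a subunit of the cystine carrier, was higher by 2.13 ± 0.12. Slc36a2 had 39 and 29 calls in PT against 38 and 39 in LOH, with overlapping sums, and did not pass (0.26 ± 0.23). Of 16 organic ion transporters, 15 were tested, 14 were higher in PT (29.9% of all genes) and 1, Abcc4, an efflux pump named after its value was seen, was higher in LOH at -0.30 ± 0.06. Over the peaks near its starts (-0.099, adjusted p of 0.403 by edgeR) and after thinning (-0.15, adjusted p of 0.537), Abcc4 did not pass. Slco1a1 fell under the filter. Slc22a19 had 132 and 144 calls in PT and 9 and 21 in LOH, a log2 fold of 3.69 ± 0.20. Slc22a12, the urate exchanger, was higher by 2.67 ± 0.16 but shares all 4 of its peaks with Nrxn2, so this value cannot be assigned to either gene. Abcc2, a pump of organic anions, was higher by 2.54 ± 0.15.

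Brush border proteins and peptidases were higher in PT in 16 of 16 genes (29.9% of all genes), 12 past 2-fold (9.51%), with a median log2 fold of 1.23. Mep1b, a meprin subunit, had 153 and 131 calls in PT and 28 and 33 in LOH, and Pdzk1, the scaffold under the brush border, had 557 and 479 against 118 and 158. Both stood well apart in both samples, at log2 folds of 2.67 ± 0.16 and 2.37 ± 0.09. For protein uptake, 7 of 10 genes were higher in PT and none in LOH, beside 29.9% and 29.6% of all genes. Lrp2, the receptor megalin, had 1202 and 1031 calls in PT and 314 and 312 in LOH, a log2 fold of 2.29 ± 0.07, and its adaptor Dab2 had 1235 and 1000 against 290 and 357, at 2.25 ± 0.06. Amn, which carries cubilin to the surface, was higher by 1.21 ± 0.12, but stood at -0.32 when the peaks over its starts were left out. Clcn5 (-0.09 ± 0.09), Ocrl (0.09 ± 0.14) and Cd2ap (0.08 ± 0.10) did not pass.

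Of 16 genes of gluconeogenesis, sugar and amine metabolism, 14 were higher in PT (29.9% of all genes), 13 of these past 2-fold (9.51%), with a median log2 fold of 2.50. Miox, the inositol oxygenase of the renal cortex, had 153 and 129 calls in PT and 11 and 12 in LOH, a log2 fold of 4.06 ± 0.21. G6pc, which releases glucose, had 115 and 101 calls against 10 and 11, at 3.81 ± 0.23 (1.06 with PT2, where it did not pass), and Pck1, the entry to gluconeogenesis, had 340 and 264 against 40 and 62, at 3.02 ± 0.13. Each of these PT sums was several times its LOH sum. Akr1c21 had 21 and 9 calls in PT and 1 and 0 in LOH, too few for a stable fold. Hnmt, which degrades histamine and falls outside the naming rule, was the member higher in LOH, at -1.23 ± 0.22 (-0.56 with PT2, where it did not pass), and Hao2 did not pass (0.07 ± 0.13). Of 17 fatty acid oxidation genes, 15 were higher in PT and none in LOH, beside 29.9% and 29.6% of all genes, at a median log2 fold of 1.03. Cyp4a14 had 90 and 62 calls in PT and 1 and 9 in LOH, and Cyp4a10, its neighbour in the fatty acid hydroxylase cluster, had 104 and 75 against 6 and 15. The LOH sums of both genes differed more between the samples, relative to their size, than the PT sums did, and the log2 folds were 4.33 ± 0.34 and 3.53 ± 0.25. For Cyp4a14 the fold was 6.51 from sample 1 alone, where LOH had 1 call, and 3.48 from sample 2 alone. Acsm1, an acyl-CoA synthetase, had 682 and 551 calls against 74 and 98, a log2 fold of 3.30 ± 0.09. Acadvl (0.18 ± 0.15) and Acaa2 (0.03 ± 0.08) did not pass.

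**Figure D3:**
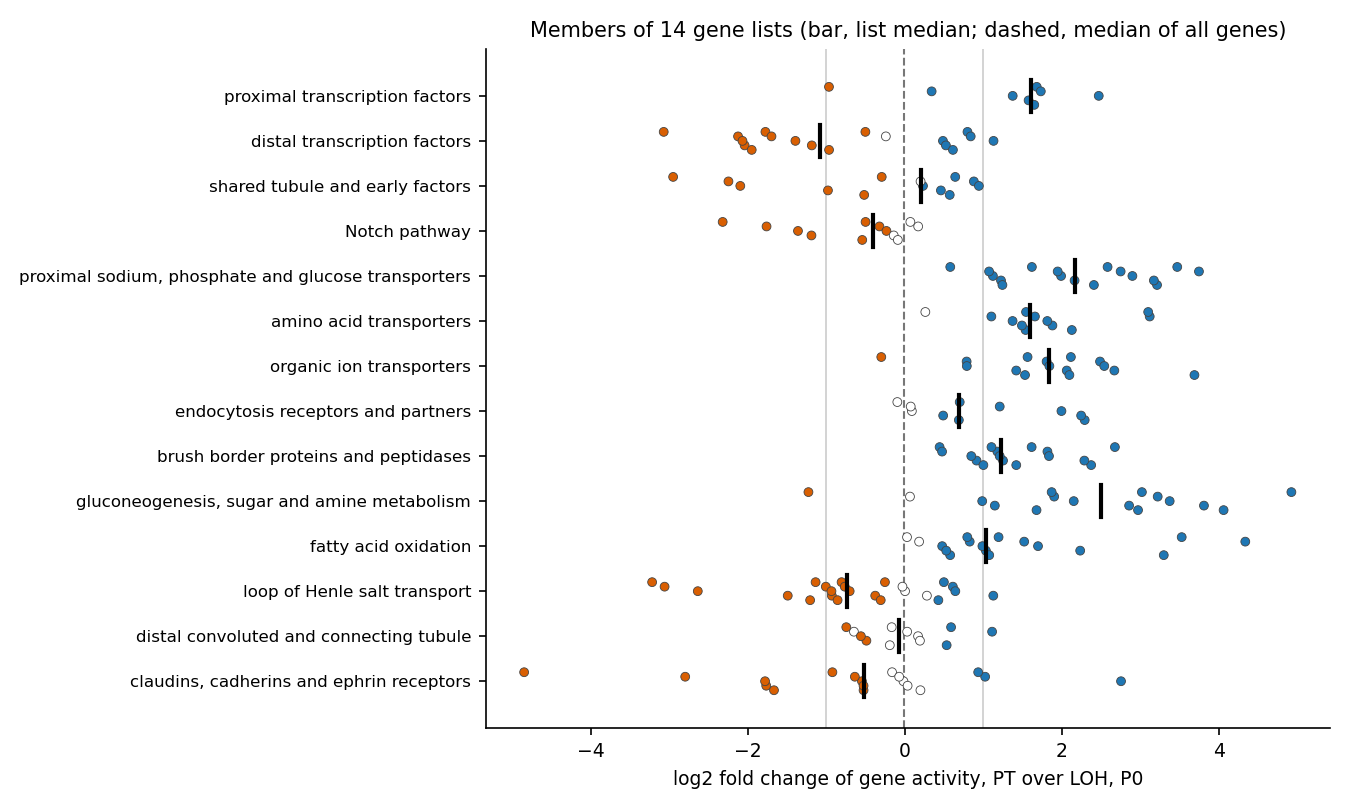
Log2 fold change of gene activity, PT over LOH at P0 (x axis), for the tested members of 14 gene lists (y axis). Each circle is a gene, blue where higher in PT, orange where higher in LOH and white where not called, the black bar is the list's median, the dashed line the median of all genes, and the grey lines mark 2-fold. Transport and metabolic lists of the proximal tubule lie right of 0 nearly whole, while the loop of Henle list reaches from -3.22 to 1.13.

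Salt transport genes of the loop of Henle held members in both directions. Of 24 genes, 16 were higher in LOH, 5 in PT and 3 did not pass, beside 29.6% and 29.9% of all genes, so the share higher in PT was below that of all genes. The median log2 fold was -0.73, with 7 genes past 2-fold toward LOH beside 13.5% of all genes. Slc12a1, the cotransporter NKCC2, had 57 and 33 calls in PT and 309 and 474 in LOH, a log2 fold of -2.63 ± 0.14. Kcnj1, the channel ROMK, had 28 and 14 calls in PT and 243 and 295 in LOH, at -3.22 ± 0.17. Cldn16, which lets magnesium and calcium pass between cells, had 8 and 6 against 72 and 91, at -3.06 ± 0.29. For these 3 genes every LOH sum was several times its PT sum. Cldn14, which closes that path, was at -1.49 ± 0.14. Tmem72 was at -1.20 ± 0.11, Bsnd, the barttin subunit of the chloride channels, at -1.14 ± 0.11, and Casr, the calcium-sensing receptor, at -0.86 ± 0.09. Umod, the gene of uromodulin, had 49 and 51 calls in PT and 111 and 155 in LOH, at -0.93 ± 0.15, and with PT2 at -0.38, where it did not pass.

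Among the genes of the list that were higher in PT were Cldn10, Oxsr1 and the sodium pump subunit genes Atp1b1 and Fxyd2. The last stood at 0.50 ± 0.06 and 0.43 ± 0.08. Without the peaks over its starts, Fxyd2 was at -0.49 and passed toward LOH (adjusted p of 0.0013, edgeR). Cldn10, of which the segments are known to use different forms, stood at 0.61 ± 0.06. With PT2, Cldn10 (0.17), Atp1b1 (0.13) and Fxyd2 (0.050) did not pass. Oxsr1 shares all 17 of its peaks with Slc22a14, so its value of 1.13 ± 0.07 cannot be assigned to it. Sorl1 (-0.03 ± 0.06) and Tmem207 (0.28 ± 0.20) did not pass. These members outside the naming rule are given since they are few.

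Of 12 genes of the distal convoluted and connecting tubule, 3 were higher in PT, 3 in LOH and 6 did not pass, shares that do not exceed those of all genes (29.9% and 29.6%). Slc12a3, the thiazide-sensitive cotransporter, had 384 and 305 calls in PT and 206 and 230 in LOH, a log2 fold of 1.11 ± 0.09. Among 18 claudins, cadherins and ephrin receptors, 10 were higher in LOH and 3, all claudins, were higher in PT, beside 29.6% and 29.9% of all genes. Cldn8 had 4 and 1 calls in PT and 94 and 111 in LOH, at -4.85 ± 0.35, and Cldn3 had 33 and 18 against 226 and 259, at -2.80 ± 0.16. Cldn2, the leaky claudin of the proximal tubule, had 320 and 287 against 60 and 64, at 2.75 ± 0.12. The claudins thus held the widest differences in both directions within that list. Efna5, an ephrin ligand, had 278 and 209 calls in PT and 967 and 1152 in LOH, at -1.67 ± 0.07. The cadherins Cdh1 (-0.02 ± 0.07), Cdh6 (0.04 ± 0.07) and Cdh16 (-0.07 ± 0.07) did not pass.

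Over all genes, the protein-coding genes with the largest folds and at least 50 calls in each sum of the higher cluster are given as a description, since they were picked by that fold. Toward PT they were Apol10a, Rdh7, Gip, Erich4, Kcnrg, Cyp4a14, Mettl7b, Ovol3, Miox and Rdh19. Apol10a, an apolipoprotein L gene, had 102 and 86 calls in PT and 3 and 6 in LOH, all in 1 peak. Rdh7 and Rdh19, genes of the retinol dehydrogenase family, had 128 and 94 against 4 and 8, and 181 and 127 against 12 and 13. Gip, the gene of an incretin hormone, had 80 and 67 against 1 and 7 from a single peak. Toward LOH they were Cldn8, Ifi206, Krt35, Gm16223, Dsg4, Syt5, Kng1, Ffar4, Kcnj1 and Calml3. Kng1, the gene of kininogen, had 5 and 11 calls in PT and 92 and 126 in LOH, and Ffar4, a fatty acid receptor, had 7 and 4 against 62 and 87. All of these 20 sums but those of Gm16223, Dsg4 and Kcnj1 rest on 1 to 3 peaks.

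Markers of cell types other than PT and LOH summed to less in both clusters than in their own nuclei, but were not equal between the clusters. The podocyte list summed to 242 and 232 CPM in PT and 172 and 176 CPM in LOH, against 769 to 815 CPM in podocytes. The endothelial list summed to 102 and 106 CPM in PT and 179 and 170 CPM in LOH, against 1312 to 1404 CPM in endothelium, and the stromal list to 80.2 and 79.7 CPM against 125 and 119 CPM, with 391 to 412 CPM in stroma. The principal cell list summed to 62.4 and 57.1 CPM in PT against 92.9 and 78.7 CPM in LOH, with 210 to 213 CPM in principal cells. The immune list gave 117 and 112 CPM in PT against 98.6 and 103 CPM in LOH (473 to 553 CPM in immune nuclei). Without Csf1r, a macrophage receptor gene, that order turned, with 58.5 and 58.2 CPM in PT and 86.2 and 90.6 CPM in LOH, and Ptprc (-1.74 ± 0.19) and Spi1 (-0.37 ± 0.10) were higher in LOH, the latter not with DESeq2 (adjusted p of 0.224). The intercalated cell list gave 88.2 and 85.8 against 66.5 and 62.8 CPM (206 to 232 CPM in intercalated cells), and without Atp6v0d2 48.5 and 44.0 against 50.8 and 48.1 CPM. Foxi1, the factor that defines intercalated cells, had 1 and 1 calls in PT and 14 and 16 in LOH, and its log2 fold of -3.32 ± 0.73 rests on these few calls. Atp6v1g3 (0.29 ± 0.46), Slc26a4 (0.11 ± 0.11) and Slc4a1 (-0.50 ± 0.31) did not pass. The immune and intercalated cell genes named here were singled out after their values were seen. The parts of these cells in the differences between PT and LOH were not tested.

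Across single peaks, 92953 of 300755 passed the filter, and 31030 were higher in PT (33.4%) and 29802 in LOH (32.1%), 65.4% in either direction. With DESeq2 the split was less even, with 25063 higher in PT and 14745 in LOH, as it was after thinning each nucleus to 1000 open peaks, with 3544 and 1971. The log2 folds of the samples correlated across peaks with a Pearson r of 0.92. Of peaks over an annotated start 51.1% were called, against 68.9% of peaks away from a start, and their median absolute log2 fold was 0.37 against 1.38. Of the peaks higher in PT, 48.1% lay in introns and 22.3% were distal, meaning outside genes and their 5-kb promoters. Of those higher in LOH, 38.0% lay in introns and 27.5% were distal, and among peaks not called, 33.6% and 22.7%. The median distance from a start was 14.8 kb for peaks higher in LOH and 10.2 kb for those higher in PT. These shares are given without a test, since neighbouring peaks are not independent. A peak could also pass the filter by its calls in 1 cluster alone. Where peaks are sparse, such a filter favours peaks that differ, and its part in these shares and folds was not tested.

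The peak with the largest fold toward LOH was distal, at chr11:84660928-84661521, about 136 kb from the start of Lhx1, its nearest gene. It was open in 119 and 111 LOH nuclei and in 0 and 0 PT nuclei, at least 63.8-fold higher in LOH when the floor of 3 counts over both PT sums is used. The exact 95% counting interval of that ratio, which also takes in the error of the LOH count, begins at 51.5. Its central 300 bases, shown because no PT nucleus was open there, hold none of the 9 motifs.
Distal peak: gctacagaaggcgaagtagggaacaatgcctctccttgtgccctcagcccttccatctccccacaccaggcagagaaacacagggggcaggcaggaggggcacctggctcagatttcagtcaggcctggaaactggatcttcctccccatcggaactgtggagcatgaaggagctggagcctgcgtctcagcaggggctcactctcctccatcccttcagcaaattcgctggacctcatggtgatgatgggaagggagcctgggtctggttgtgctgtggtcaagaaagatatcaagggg
Toward PT, the peak with the largest fold lay in an intron of Tbc1d10a at chr11:4189051-4189736 and was open in 104 and 90 PT nuclei against 0 and 1 LOH nuclei. The next lay in introns of Fam214a, Acox3, Magi2 and Mapk14, each with 1 LOH nucleus in all, and Acox3 encodes a peroxisomal oxidase. Intron peaks thus made up all 5 of the leading PT peaks, while those of LOH were distal in 3 of 5 cases.

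Short motifs were counted in the peaks of both branches. Each motif was searched on both strands of the central 300 bases of 92919 tested peaks, and 9 motifs are reported. The HNF4 letters CAAAGTCCA were in 2.94% of peaks higher in PT, 0.225% of peaks higher in LOH and 0.458% of peaks not called, against 1.21% of all. The direct repeat GGTCANAGG, read by many nuclear receptors, was in 3.30%, 1.78% and 1.85% (2.31% of all). PT peaks held more of both than either other group, and for LOH the shares were at or below those of peaks not called.

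Toward LOH, the grainyhead letters AACCGGTT were in 0.282% of peaks higher in LOH, 0.0967% of those higher in PT and 0.187% of those not called (0.187% of all). The POU octamer ATGCAAAT was in 2.08%, 1.40% and 1.36% (1.60% of all), and the RBPJ letters CGTGGGAA in 0.936%, 0.529% and 0.710% (0.722%). The ESRR letters TCAAGGTCA were in 0.970% of LOH and 0.761% of PT peaks, with 0.729% of peaks not called and 0.817% of all. For AP-2, the palindrome GCCNNNGGC was in 15.3% of LOH and 10.8% of PT peaks, but also in 15.2% of peaks not called and 13.7% of all. Away from starts, its shares were 12.5%, 9.13% and 9.97%. The AP-1 letters TGANTCA were in 10.7% of PT, 8.99% of LOH and 7.94% of uncalled peaks (9.20% of all), and the forkhead letters TGTTTAC in 4.62%, 4.45% and 3.78% (4.27%). Median GC content was 48.3% in PT peaks, 51.3% in LOH peaks and 51.7% in peaks not called, and its part in these shares was not tested.

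**Figure D4:**
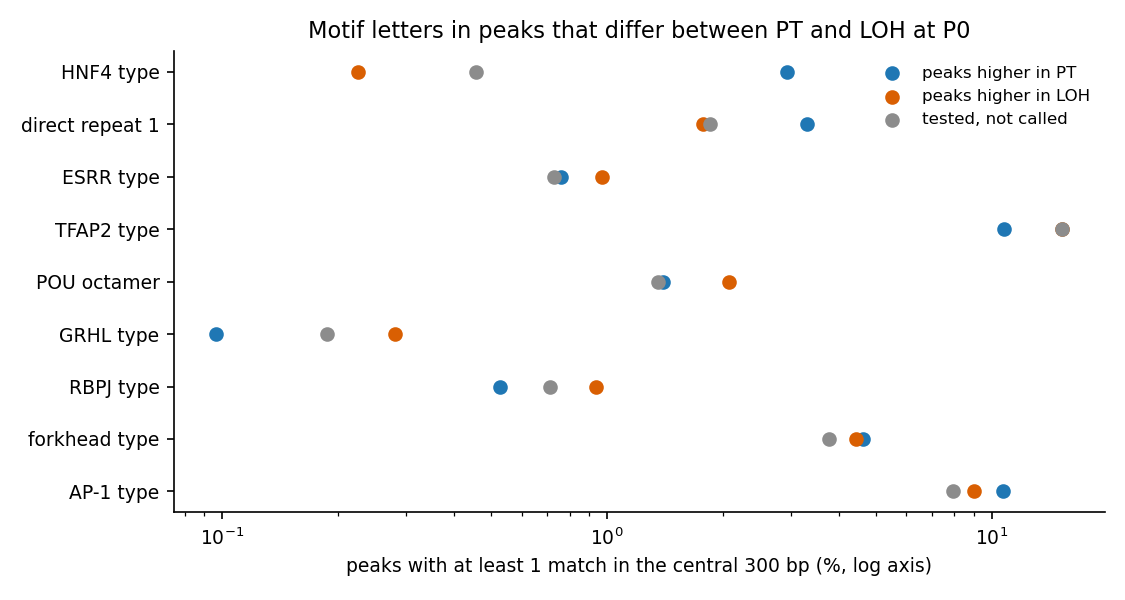
Share of tested peaks with at least 1 match in the central 300 bases (%, log axis) for 9 motifs, in peaks higher in PT (blue), higher in LOH (orange) and not called (grey). The HNF4 letters show the widest split, 2.94% against 0.225%, and the AP-2 share of LOH peaks lies on that of peaks not called.

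Peaks that hold these letters lay at members of the lists. The stretches shown here, 60 bases each from the plus strand of GRCm38.p6, are shown for the PT and LOH peaks with the largest folds at listed genes that hold the HNF4, POU or grainyhead letters, outside exons and open in at least 10 nuclei of each sample in the higher cluster, a rule set after the motif shares were seen. Capitals mark the match, which reads as the reverse complement where it lies on the minus strand, and a match is not a shown binding site.
Slc2a2, HNF4 type: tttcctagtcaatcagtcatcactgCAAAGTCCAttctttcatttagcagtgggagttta
Ppara, HNF4 type: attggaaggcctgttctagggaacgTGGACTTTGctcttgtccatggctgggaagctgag
Ppara (other peak), HNF4 type: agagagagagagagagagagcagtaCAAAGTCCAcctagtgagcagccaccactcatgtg
Abcg2, HNF4 type: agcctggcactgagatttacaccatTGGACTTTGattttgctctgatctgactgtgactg
Dab2, HNF4 type: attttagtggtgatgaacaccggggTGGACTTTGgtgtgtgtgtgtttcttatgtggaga
Stk39, POU octamer: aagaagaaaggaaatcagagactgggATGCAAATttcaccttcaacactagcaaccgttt
Slc12a1, POU octamer: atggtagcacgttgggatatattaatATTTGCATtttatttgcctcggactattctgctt
Tfap2b, GRHL type: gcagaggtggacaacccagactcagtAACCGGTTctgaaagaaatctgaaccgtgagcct
The Slc2a2 peak at chr3:28699467-28700137 was open in 139 and 107 PT nuclei against 4 and 9 LOH nuclei. The Ppara peaks at chr15:85776868-85777384 and chr15:85754216-85754807 were open in 52 and 41 against 3 and 2, and in 58 and 61 against 2 and 5. That of Abcg2, an efflux pump, at chr6:58638732-58639241 was open in 40 and 49 against 1 and 7. The Dab2 peak at chr15:6384233-6384554 was open in 38 and 30 against 3 and 4. All 5 are intronic, and each was many times more often open in PT than in LOH. In the other direction, the peak in an intron of Stk39, a kinase that activates NKCC2, at chr2:68413053-68413327 was open in 0 and 0 PT nuclei and 13 and 14 LOH nuclei, at least 7.49-fold higher in LOH by the same floor and with an exact interval that begins at 5.69. The Slc12a1 peak at chr2:125161240-125161515 was open in 0 and 1 against 18 and 23, and the Tfap2b peak at chr1:19209856-19210644 in 10 and 8 against 43 and 42. Over the 111 tested genes of the proximal lists, 13 of 549 peaks higher in PT (2.37%) held the HNF4 letters, in 12 genes, beside 2.94% of all PT peaks. Over the 60 tested genes of the distal lists, 0 of 293 peaks higher in LOH did, where the share of all LOH peaks was 0.225%, so neither list stood above its own branch.

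The split between the branches was compared with that of the adult kidney in 1 fit over 10 sums, with 6308 PT and 2341 LOH nuclei in the 3 adult samples. Of 27139 genes tested, 8355 were higher in PT in the adult (30.8%) and 8003 in LOH (29.5%). Of 8916 genes called at both stages, 7889 (88.5%) had the same direction and 1027 the opposite one, and the former had a median absolute log2 fold of 1.06 at P0 and 1.40 in the adult. The difference between stages itself passed for 34.5% of genes, 15.6% with a fold nearer to PT at P0 and 18.9% nearer to LOH. This count of 9356 genes depends on both P0 samples, as it was 3905 without sample 1 and 3645 without sample 2, and it was 4858 without the sample as a block. Without the first P56 sample the split turned, with 4980 genes nearer to PT at P0 and 3979 nearer to LOH. The adult group joins P21 and P56, and the deposited annotation names each sample as a batch of its own, so stage and batch cannot be told apart. Adult nuclei also differed in depth, with medians of 2496 to 4477 open peaks in LOH and 4206 to 7466 in PT, and the part of depth in the difference between stages was not tested.

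Of 24 loop of Henle salt transport genes, 19 were relatively lower in LOH at P0 than in the adult by the test of the difference, and 1, Nos1, was relatively higher, beside 15.6% and 18.9% of all genes, and their median log2 fold went from -0.78 at P0 to -1.96 in the adult, both from the fit over 5 samples, as are all folds set side by side here. Bsnd went from -1.18 at P0 to -4.71 in the adult and Slc12a1 from -2.68 to -5.19. Fxyd2 turned from 0.39 to -1.97 and Egf, the growth factor made in this segment, moved from -0.29 to -2.74. The P0 side of the Fxyd2 turn depends on the peaks counted. Without the peaks over its starts, Fxyd2 passed toward LOH at P0, and after thinning it did not pass (0.39, adjusted p of 0.158, edgeR). Atp1b1, too, was higher in PT at P0 and higher in LOH in the adult, at -0.52. Its P0 call was lost with PT2 (0.13, adjusted p of 0.412, edgeR) and after thinning (0.36, adjusted p of 0.0773).

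Proximal genes moved in the same sense of a wider split, but with more exceptions. Among the 17 sodium, phosphate and glucose transporters, 10 had a larger fold toward PT in the adult (18.9% of all genes moved that way) and 3 a smaller one (15.6%) by the test of the difference, and the median log2 fold was 2.13 at P0 and 3.66 in the adult. Slc13a1, a sulfate carrier, went from 1.20 to 3.66, while Slc9a3, the sodium-proton exchanger, went from 1.19 to 0.04 and Slc5a1, the carrier SGLT1, from 1.03 to -0.34, all 3 named after their values were seen. Fatty acid oxidation went the other way, with 8 of 17 genes relatively higher in PT at P0 and 3 lower, the latter near the share of all genes (15.6% and 18.9%), and a median log2 fold of 0.99 at P0 and 0.60 in the adult. Of the branch factors, Hnf4a went from 2.43 to 3.64 and Mecom from -1.82 to -3.05. Lhx1 went from 0.60 to 2.77. For Hoxd8 (a difference of 0.09 ± 0.20, SE) and Ppara (-0.22 ± 0.15) the difference between stages did not pass.

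**Figure D5:**
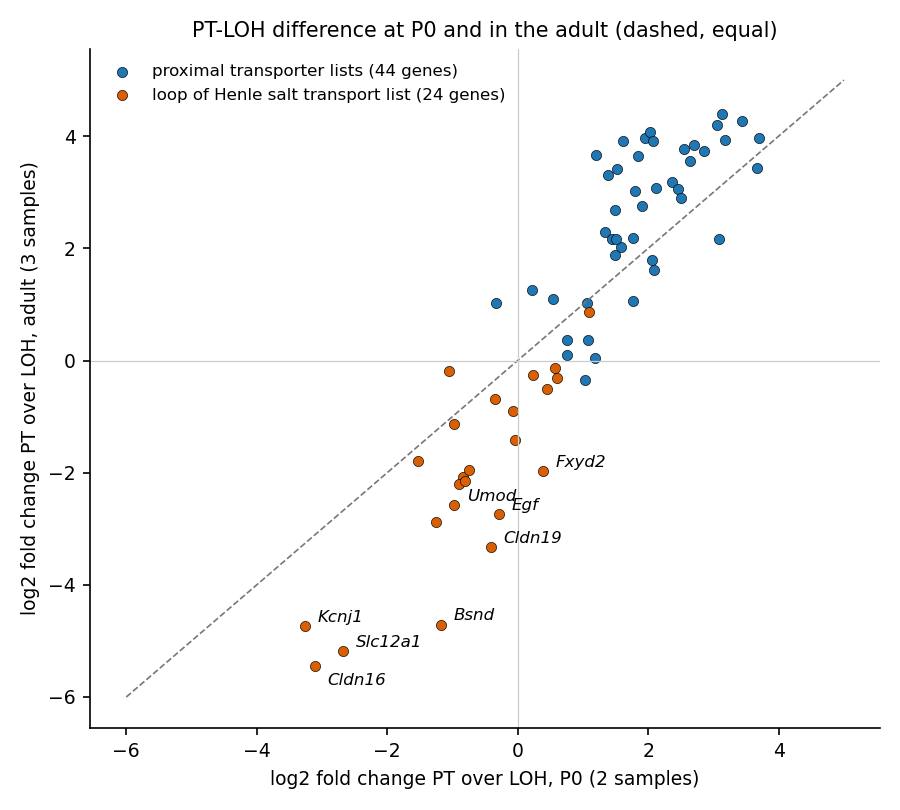
Log2 fold change of gene activity, PT over LOH, at P0 (x axis, 2 samples) and in the adult (y axis, 3 samples), for 44 proximal transporter genes (blue) and 24 loop of Henle salt transport genes (orange), with the dashed line where both are equal. The orange circles lie below the dashed line in 23 of 24 cases, and Bsnd and Cldn19 are among the farthest from it.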

How the data were processed

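The snATAC-seq data cover kidneys at P0 (2 samples), P21 (1) and P56 (2). The authors mapped reads to mm10 (GRCm38) with Cell Ranger ATAC 1.1.0, filtered barcodes on fragment number and on mitochondrial and promoter shares, used SnapATAC and Harmony for clustering, and called peaks with MACS2 per cell type on pooled nuclei. They deposited counts that are whole numbers, a binarized matrix of 300755 peaks in which each entry is 0 or 1, with a cluster name per nucleus. The single-cell RNA-seq and bulk samples were not used here.

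Open calls were summed per sample and cluster, over peaks and over genes (GENCODE M21, gene body and 2 kb upstream). A peak in overlapping genes was added to each. Sums were tested with edgeR 4.0.16 (R 4.3.3), TMM, the quasi-likelihood test and a filter of 10 calls, with the sample as a block, and p-values were adjusted by Benjamini-Hochberg at 0.05. The pairing comes from the sample, since PT and LOH nuclei of 1 number are from the same sample. The stage comparison used 5 samples in 1 fit. Standard errors are the log2 fold over the root of F. They rest mainly on dispersion shared across genes or peaks, so they can be smaller than the gap between the 2 samples, as for Gpat2. Tables were handled with Python 3.11.15 and sequences taken from RefSeq GRCm38.p6. No doublet caller was run. On simulated counts for the gene comparison (26072 genes), 97.8% of 4-fold and 82.4% of 2-fold changes were recovered, with 8 false of 187 calls, and for the peak comparison (92953 peaks) 92.1% and 31.4%, with 5 false of 137. Each simulation changed 200 features, used 1 dispersion for all and held no sample effect. In the data 59.4% of genes were called, so these shares are not error rates of the reported calls. Counting intervals and floors cover counting error only.

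The members and gene lists were chosen with earlier results of these data known. Named genes were all genes the study names at the branch, up to 6 members per other list with the largest fold, the 10 protein-coding genes per direction with the largest fold and at least 50 calls in each higher sum, 8 per direction for the stage difference, and 5 peaks per direction. Members that passed no test are given, where named, as values only. Most other genes are said to be chosen after their values were seen. The alternatives were another test (DESeq2 1.42.0), scaling, filter, cluster, depth, gene window, gene set and samples. Some members of the lists and 1 motif are not reported here. PT with PT2, and genes without the peaks over their starts, were added after seeing the data.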

Additional observations from a re-analysis of the deposited data

Results flagged for a closer look

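The values here are the PT over LOH log2 fold at P0 minus that in the adult, each past the test of the difference between stages (edgeR, adjusted p under 0.05), which 34.5% of all genes passed. Positive values mean a fold nearer to PT at P0.

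Among the loop of Henle salt transport genes, the differences were Slc12a1 (2.51), Kcnj1 (1.47), Bsnd (3.53), Umod (1.61), Egf (2.45), Cldn10 (0.71), Cldn16 (2.34) and Cldn19 (2.91). They were also positive for Casr (1.31), Ptger3 (1.34), Atp1b1 (0.97), Fxyd2 (2.36), Stk39 (1.21), Wnk1 (0.34), Sorl1 (0.84) and Tmem72 (1.63), and Nos1 was the member with a negative value (-0.86).

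Among the genes the study names at the branch, differences toward PT at P0 were those of Tfap2a (0.69), Tfap2b (0.86), Ephb2 (2.30), Ephb3 (0.86), Mecom (1.23), Prdm16 (0.78), Esrra (0.74) and Ppargc1a (0.65). Those toward LOH were Hnf4a (-1.21), Maf (-0.49) and Lhx1 (-2.17).

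Over all protein-coding genes, those with the smallest p toward PT at P0 were, beside Bsnd and Fxyd2, Krt7 (4.42), Hk1 (3.01), AI661453 (2.72), Abcc1 (2.22), Lrrfip1 (2.12) and Baiap2l2 (2.14). Krt7, a keratin of simple epithelia, stood at -0.02 at P0 and -4.43 in the adult, and Hk1, a hexokinase, at -1.56 and -4.58. Toward LOH at P0 they were Tsku (-2.60), Prima1 (-3.16), Ttc28 (-1.69), Rassf2 (-2.92), Serp2 (-2.57), Lbh (-2.46) and Epb41l3 (-1.97). Prima1 stood at 0.27 at P0 and 3.44 in the adult. These genes were picked by their p, so the sizes are a description.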

How the results depend on the processing

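The counts of genes higher in PT (7790) and in LOH (7706) were 4784 and 3923 with DESeq2, 4806 and 3528 with the PT2 cluster in place of PT, 2639 and 2326 with each nucleus thinned to 1000 open peaks, and 5150 and 4963 where protein-coding genes alone were tested, which are fewer genes. The counts of peaks higher in PT (31030) and in LOH (29802) were 17028 and 13687 with PT2 and 3544 and 1971 after thinning, and with DESeq2 25063 and 14745. Thinning leaves fewer calls per sum. PT2 differs from PT in nuclei number and in cluster, which cannot be told apart. The cause of the DESeq2 difference was not tested. Without the sample as a block, the pairing changed little at P0, with 7282 and 7291 genes and 30577 and 29498 peaks, but the stage difference fell from 9356 to 4858 genes. DESeq2 called 4693 genes there, and leaving out 1 sample gave 3645 to 10252. Genes past 2-fold by size alone numbered 2486 toward PT and 3558 toward LOH, with 2520 to 2659 and 3571 to 3830 from 1 sample, values with no test.

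Of 158 named genes, none changed direction with DESeq2, its size factors, no filter, no block, all 13 cell types in the fit, equal nuclei or PT and PT2 together. Calls were lost, in the same direction, for 26 genes with PT2 alone, 17 after thinning, 11 with DESeq2, 7 without the peaks over starts, 4 over the peaks near the starts and 1 (Gpat2) with PT and PT2 together. The result was the same for 118 genes with PT2 alone, 115 after thinning, 127 without the peaks over starts and 135 over the peaks near the starts. Named genes outside the same, lost and turned counts have no result in that setting. Cited4 passed with equal nuclei (-0.29). Those lost with DESeq2 were Cldn19, Egf, Egfl7, Foxd1, Gpat2, Heyl, Irx3, Jag1, Scnn1g, Spi1 and Tie1. With PT2 alone, 11 turned: Cldn19 (0.021), Egf (0.031), Gpat2 (-0.65), Heyl (0.074), Irx1 (0.35), Irx2 (0.077), Nphs1 (-1.18), Scnn1g (0.12), Slc13a1 (-0.32), Slc5a12 (-0.066) and Slc5a2 (-0.33). Of these, Nphs1 alone passed in the turned direction (adjusted p of 8.7e-04, edgeR). Over the peaks near the starts, Atp6v0d2 (-1.81), Egfl7 (0.51) and Trps1 (-0.56) turned and passed in the turned direction. Egf (0.22), Jag1 (0.043) and Ppargc1a (-0.050) turned there but did not pass. Without the peaks over starts, Amn (-0.32), Egfl7 (0.47) and Fxyd2 (-0.49) turned, and Fxyd2 alone passed. Ptger3 turned after thinning (0.22) and did not pass, and Gpat2 was at -0.009 without P0 sample 1 and at 1.13 without sample 2. Without sample 2, Cyp4a14 was at 6.51 and Gip at 6.34, and without sample 1 Akr1c21 was at 6.59 and Kap at 6.74, fitted values against 0 or 1 LOH calls. The cause of these changes was not tested. PT alone as the convoluted segment and P56 alone as adult gave no further values, being the main comparison and the fit without P21.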

Other observations

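Gene families, some of whose members are also in the lists, were counted after their results were known, beside 29.9% of all genes higher in PT and 29.6% in LOH. Of 351 solute carriers tested, 175 were higher in PT and 75 in LOH. Slc10a5, a bile acid carrier relative, had 53 and 38 calls in PT and 4 and 1 in LOH. Of 15 UDP-glucuronosyltransferases, which conjugate drugs and hormones, 14 were higher in PT and 1 in LOH, but the Ugt1a genes share their last exons. Of 52 cytochrome P450 genes, 22 were higher in PT and 14 in LOH, and Cyp2j5, an arachidonic acid epoxygenase, had 224 and 169 calls in PT against 20 and 16 in LOH. All 4 Acsm genes and 13 of 21 aldehyde dehydrogenases were higher in PT, with 3 of the latter higher in LOH.

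Toward LOH, 29 of 38 Hox factors were higher and none was higher in PT, with a median log2 fold of -0.86. Hoxd11, which patterns the kidney, had 40 and 20 calls in PT and 312 and 327 in LOH, so the groups stood far apart. Of 19 Wnt ligands, 15 were higher in LOH and 2 in PT, and Wnt7b had 180 and 113 calls in PT against 452 and 516 in LOH. Of 17 Sox factors, 13 were higher in LOH and 1 in PT. Of 91 potassium channel genes, 46 were higher in LOH and 15 in PT, and of 22 ephrins and their receptors 16 and 2. Of 26 keratins, 12 were higher in LOH and 4 in PT. The other families counted gave 4 PT and 8 LOH of 22 fibroblast growth factors, 2 and 3 of 8 bone morphogenetic proteins, 6 and 8 of 20 semaphorins, 9 and 2 of 20 glutathione S-transferases and 4 and 1 of 7 Nat8 genes.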
